A study of Mus musculus with 2 samples.

Results

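The acellular membranes of the inner ear are secreted gels that couple sound and motion to hair bundles, and 7 genes for their non-collagenous proteins were followed here across the cell types of the mouse cochlea: Tecta, Tectb, Ceacam16, Otog, Otogl, Otoa and Otol1. They were chosen by symbol, 1 row each, out of 27998 genes in the count matrices, and no measured value entered the choice. The study was a survey of gene expression in wild-type C57BL/6 mice at 20 days of age, an age after the onset of hearing. Cochleae of 5 to 8 mice were dissociated with trypsin and sequenced as single cells in 1 group of 2 libraries. No treatment or mutant was part of it, and no label states that the libraries came from separate animals. The p-values therefore measure only the spread between these libraries, which may be technical. In the fit over cell classes that spread was, for a typical gene, shared over genes and classes. A small p-value there does not show that the 2 library values of a gene agree. Values are unique molecular identifiers (UMIs, 1 per captured transcript), and levels are UMIs of a gene per 1000000 UMIs of a class (CPM).

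The tectorial membrane lies over the organ of Corti and touches the bundles of the outer hair cells. Its striated-sheet matrix is built from alpha-tectorin (Tecta), beta-tectorin (Tectb), both with zona pellucida domains, and the secreted immunoglobulin-like protein CEACAM16, around collagen fibrils. Otogelin (Otog) and otogelin-like protein (Otogl) are mucin-like components of the tectorial membrane and of the acellular membranes of the vestibular organs. Otoancorin (Otoa) holds the tectorial membrane to the spiral limbus, where interdental cells secrete and anchor it, and otolin (Otol1), a collagen-like protein with a C1q domain, belongs to the matrix of otoconia. Supporting cells, interdental cells and their neighbours in the cochlear epithelium are the known sources of these proteins, and mutations in several of the genes cause deafness in mice and people.

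After filtering, 1329 cells of library 1 (median 10601 UMIs) and 640 cells of library 2 (median 6116 UMIs) remained, and 2 barcodes occurred in both libraries. Cells were clustered without the 7 genes. Of 23 clusters, 5 besides the hair cell-like one, which also met the rule, carried at least 4 of 8 pan-epithelial markers. These 5 are called epithelial, with 176 cells in library 1 and 63 in library 2. Each is named here by a leading gene. The Rbp7, Lfng and Fabp7 classes were organ of Corti supporting cell-like, each with 5 of 9 supporting cell markers. They held 28, 54 and 43 cells in library 1 and 0, 7 and 6 in library 2, so the Rbp7 class has no replicate. The Lrp2 class (17 and 28 cells in libraries 1 and 2) was non-sensory cochlear epithelium-like on 3 of 10 markers, Lrp2, Crhbp and Slc26a4. The Ucma class (34 and 22 cells), led by Ucma, Frzb and Epyc, carried 4 of those 10 markers and stayed unnamed. Hair cell-like cells numbered 48 and 4. The other 17 clusters (1105 and 573 cells) are called non-epithelial and included erythroid cell-like, blood, mesenchymal and vascular cells. They also hold a cluster with 4 of 6 stria marginal cell markers, which has 1 pan-epithelial marker.

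The kept cells held 5230 and 762 UMIs of Ceacam16 in libraries 1 and 2, 971 and 28 of Tectb, 692 and 47 of Otog, 287 and 2 of Otol1, 101 and 33 of Otoa, 49 and 2 of Otogl, and 15 and 4 of Tecta. All but Tecta were seen mainly in the epithelial classes. Ceacam16, whose product binds alpha-tectorin, stood at 1752 CPM in epithelial cells of library 1 against 29.3 CPM in non-epithelial cells, a ratio of 59.8 (exact 95% interval 54.2 to 66.1), and at 1466 against 8.10 CPM in library 2, a ratio of 181 (135 to 248). Intervals of this kind cover counting error only. Tectb stood at 338 against 2.25 CPM in library 1 (ratio 150, 107 to 218) and at 51.3 against 0.506 CPM in library 2 (ratio 101, 30.9 to 525). The second Tectb value came from 1 cell with 25 UMIs, out of 63 epithelial cells, and from 3 UMIs in non-epithelial cells.

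Otog reached 201 against 2.52 CPM in library 1 (ratio 79.9, 57.4 to 114) and 92.4 against 0.337 CPM in library 2 (ratio 274, 71.5 to 2330, on 2 UMIs in non-epithelial cells). Otoa had smaller ratios, with 23.0 against 2.12 CPM in library 1 (10.9, 6.97 to 17.2) and 53.4 against 1.18 CPM in library 2 (45.2, 19.1 to 123). Otol1 stood at 84.2 against 1.33 CPM in library 1 (63.5, 40.1 to 106). Otogl stood at 13.6 against 0.663 CPM in library 1 (20.5, 9.97 to 46.3). In library 2 Otol1 and Otogl each had 2 UMIs in epithelial and 0 in non-epithelial cells, and no ratio is given. For Tecta, epithelial cells of library 1 held 5 UMIs and non-epithelial cells 8, a ratio of 3.56 with an interval of 0.916 to 12.3, and library 2 had 0 and 4. A difference in Tecta was not detectable at this depth. With 0 UMIs among 487106 in the epithelial cells of library 2, a Tecta level of up to 6.16 CPM (3 counts) cannot be told from 0 there.

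In the fit across all genes, the mean of the epithelial classes was compared with the mean of the non-epithelial classes, with each class weighted equally, over the 32 sums of those 16 classes that held 3 or more cells in both libraries. The Rbp7 class was not in this fit. Tecta and Otogl did not pass the filter on low counts. Otog, Tectb and Otol1 passed it only through epithelial and hair cell-like sums, where they are high. Of the 5 members tested 2 were higher and 0 lower, beside 23.4% of all tested genes higher and 9.32% lower. For Otog the log2 fold change was 5.27 ± 0.45 (SE), with a Benjamini-Hochberg adjusted p of 9.30e-28 from edgeR's quasi-likelihood fit and differences of 2.53 and 4.52 in libraries 1 and 2. Ceacam16 was higher by 3.66 ± 0.51 (edgeR, adjusted p = 3.83e-06), with differences of 2.87 and 4.02. These per-library differences are between mean log2 CPM values, computed after adding a prior count of 2. Tectb, Otoa and Otol1 could not be fitted in this comparison: each had 0 counts in 1 of 4 epithelial classes and in 2 to 4 of 11 non-epithelial classes, and a mean of logarithms over such classes has no finite value.

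When the cells of each side were summed first, so that each library gave 1 epithelial and 1 non-epithelial value and the Rbp7 class entered, all 6 members tested were higher, beside 16.8% of all genes tested that way. All but Ceacam16 passed the filter on low counts only with their epithelial sums, where they are high. That all members tested were higher was therefore largely set by the filter. The log2 fold changes from this edgeR fit were 6.77 ± 0.35 for Tectb (adjusted p = 2.12e-08), 6.33 ± 0.61 for Ceacam16 (0.00526), 6.32 ± 0.39 for Otog (1.94e-07), 5.65 ± 0.45 for Otol1 (5.75e-07), 4.22 ± 0.83 for Otogl (0.00131) and 3.86 ± 0.51 for Otoa (0.000201). With 1 value per side and library, little was left to estimate the spread of a gene by itself. The SEs and p-values of this fit therefore lean on a spread shared over genes. In library 2 the epithelial Tectb value came from 1 cell with 25 UMIs, and Otol1 and Otogl had 2 UMIs each. Ceacam16, Tectb, Otog and Otoa had a ratio above 1 in both libraries, and Tecta was not tested.

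**Figure D1:**
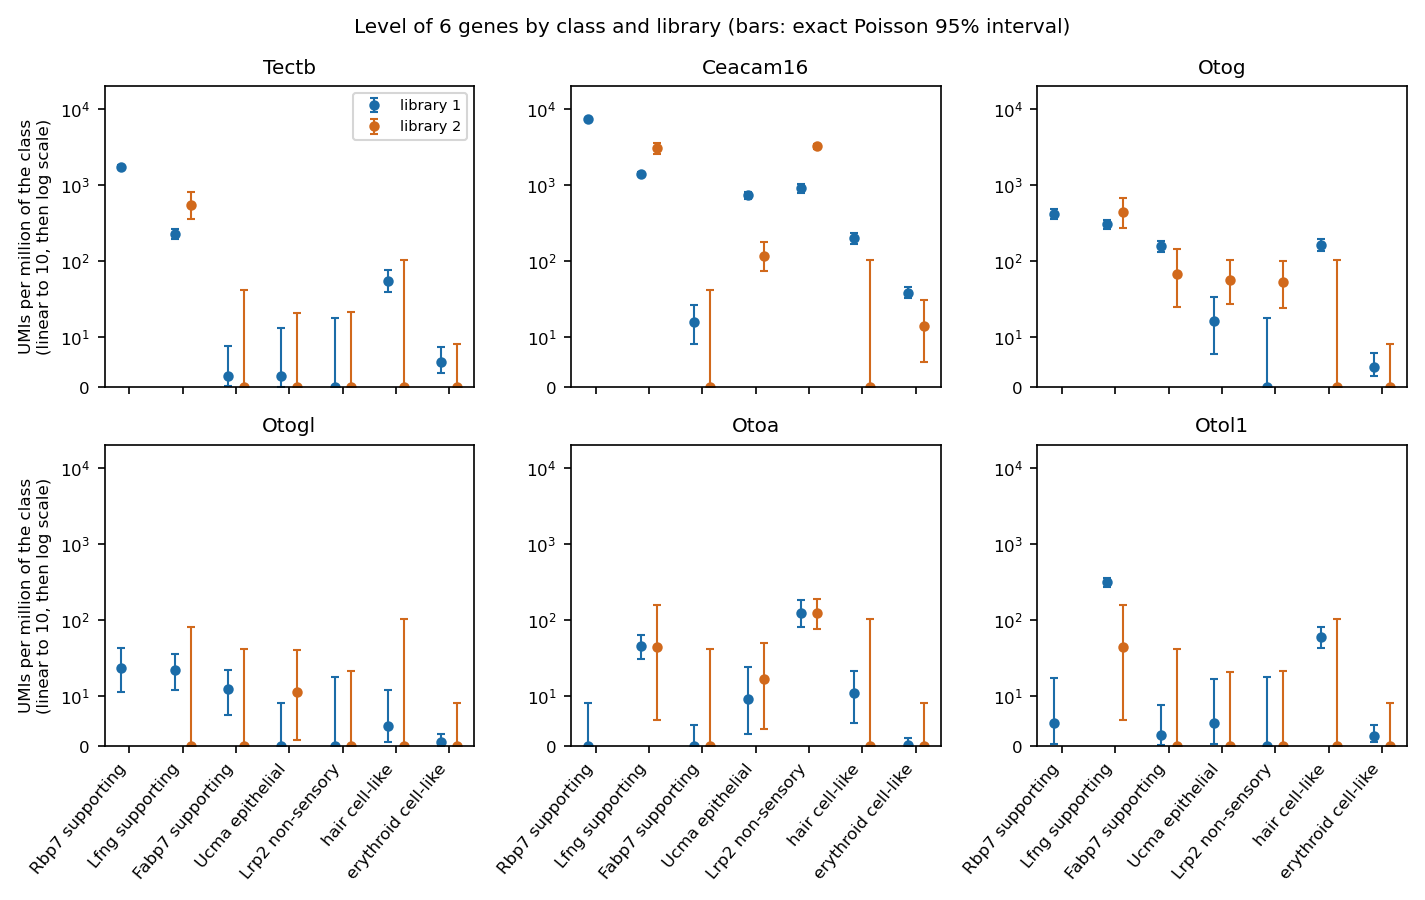
Level of 6 genes in each epithelial class, in hair cell-like cells and in erythroid cell-like cells, in CPM (linear up to 10, log scale above), for library 1 (blue) and library 2 (orange), with exact Poisson 95% intervals. Tectb stands high in the Rbp7 and Lfng classes, Otol1 in the Lfng class and Otoa in the Lrp2 class, while Ceacam16 spans 4 of the 5 epithelial classes; the Rbp7 class has no cells in library 2.

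Within the epithelium each gene had its own order of classes, shown in the plot of levels by class. Tectb reached 1721 CPM in the Rbp7 class of library 1 (735 UMIs, in 23 of 28 cells). In the Lfng class it stood at 228 CPM in library 1 (158 UMIs, in 28 of 54 cells) and at 548 CPM in library 2, where 1 of 7 cells held all 25 UMIs. The Fabp7 and Ucma classes had 2 and 1 UMIs in library 1 and 0 in library 2, and the Lrp2 class had 0 in both libraries. Beta-tectorin transcripts were thus at or under 3 counts in every library of these 3 classes.

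Otol1 was most abundant in the Lfng class, at 313 CPM in library 1 (217 UMIs, in 45 of 54 cells, with 0 to 23 UMIs per cell) and 43.8 CPM in library 2 (2 UMIs, in 2 of 7 cells). The exact intervals of these values, 272 to 357 and 5.31 to 158 CPM, do not overlap. The Rbp7, Fabp7 and Ucma classes held 2 UMIs of Otol1 each in library 1 and the Lrp2 class 0, and library 2 had 0 in all of them. In the Rbp7 class the Otol1 level was 4.68 CPM (0.567 to 16.9), although that class and the Lfng class both carried Tectb, Otog and Ceacam16.

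Ceacam16 was seen in 28 of 28 cells of the Rbp7 class, at 7413 CPM (5 to 361 UMIs per cell). It reached 1384 and 3045 CPM in the Lfng class in libraries 1 and 2, 897 and 3206 CPM in the Lrp2 class, and 726 and 118 CPM in the Ucma class. In the Fabp7 class, which is also supporting cell-like, it stood at 15.7 CPM in library 1 (14 UMIs among 43 cells) and at 0 in library 2, where 0 UMIs allow up to 33.3 CPM. The Fabp7 values lay at or below the 38.2 and 14.0 CPM of erythroid cell-like cells and are read as background. Over the 2 libraries the Lfng class (2215 ± 1175 CPM, SD, n = 2) and the Lrp2 class (2051 ± 1632 CPM), the neighbours at the top of the order of fitted classes, did not differ beyond their spread, and the Ucma class followed with 422 ± 430 CPM.

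In the Ucma class of library 1, 164 of 311 Ceacam16 UMIs came from 1 cell, and 10 of 21 did in library 2. In library 1, 67.6% of Ucma class cells (23 of 34, median 10961 UMIs) held a Ceacam16 UMI, against 31.9% (104 of 326, median 10340.5 UMIs) of erythroid cell-like cells, which should lack the gene. In library 2 the share was 22.7% (5 of 22 cells, median 7137 UMIs) in the Ucma class and 18.2% (6 of 33, median 12729 UMIs) in erythroid cell-like cells. With each cell thinned to 2000 UMIs the shares were 32.4% in the Ucma class and 9.20% in erythroid cell-like cells of library 1, and 13.6% and 6.06% in library 2.

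Otog spread over all 3 supporting cell-like classes. It had 412 CPM in the Rbp7 class (27 of 28 cells), 304 and 438 CPM in the Lfng class in libraries 1 and 2 (44 of 54 and 7 of 7 cells), and 156 and 66.7 CPM in the Fabp7 class (37 of 43 and 4 of 6 cells). In the Ucma class it stood at 16.3 and 56.0 CPM, and in the Lrp2 class at 0 and 52.1 CPM. Erythroid cell-like cells had 4.08 and 0 CPM. Its relative Otogl was much sparser, with 15 UMIs in the Lfng class (21.6 CPM), 11 in the Fabp7 class (12.4 CPM) and 10 in the Rbp7 class (23.4 CPM) of library 1. These are the same 3 classes that carried Otog, and the only 2 Otogl UMIs of library 2 lay in 1 cell of the Ucma class.

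Otoa had another order. It was highest in the Lrp2 class, at 124 CPM in library 1 (26 UMIs, in 9 of 17 cells) and 122 CPM in library 2 (21 UMIs, in 8 of 28 cells), followed by the Lfng class at 44.6 and 43.8 CPM (31 and 2 UMIs). The mean of the Lrp2 class was 123 ± 1.81 CPM (SD, n = 2), but few cells held much of it. In library 1, 2 deep cells held 53851 and 58205 of the 209551 UMIs of the class, and 2 and 9 of its 26 Otoa UMIs. In library 2, 14 of its 21 Otoa UMIs lay in 3 cells, which are also those with the most Ceacam16. Without these 3 cells and 1 Ceacam16-high cell of library 1 the class stood at 98.3 and 44.9 CPM. The second value lay beside 43.8 CPM in the Lfng class of library 2. The Ucma class had 9.34 and 16.8 CPM, on 4 and 3 UMIs, and the Rbp7 and Fabp7 classes had 0 UMIs. For the Rbp7 class, 0 among 427196 UMIs allows up to 7.02 CPM. Erythroid cell-like cells had 1 Otoa UMI in library 1 and 0 in library 2.

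Tecta was near 0 throughout. Of its 19 UMIs, 8 lay in a non-epithelial cluster with 3 of 7 cochlear fibrocyte markers, which stayed unnamed and held 4 in each library (1.63 and 3.48 CPM, in 4 of 101 and 4 of 47 cells), and no other class had Tecta in both libraries. Its 5 epithelial UMIs all lay in the Lfng class of library 1 (4 of 54 cells, 7.20 CPM with an interval of 2.34 to 16.8), and the Rbp7 class, where Tectb and Ceacam16 were abundant, had 0, which allows up to 7.02 CPM. A shared pattern of the tectorins could therefore not be examined.

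**Figure D2:**
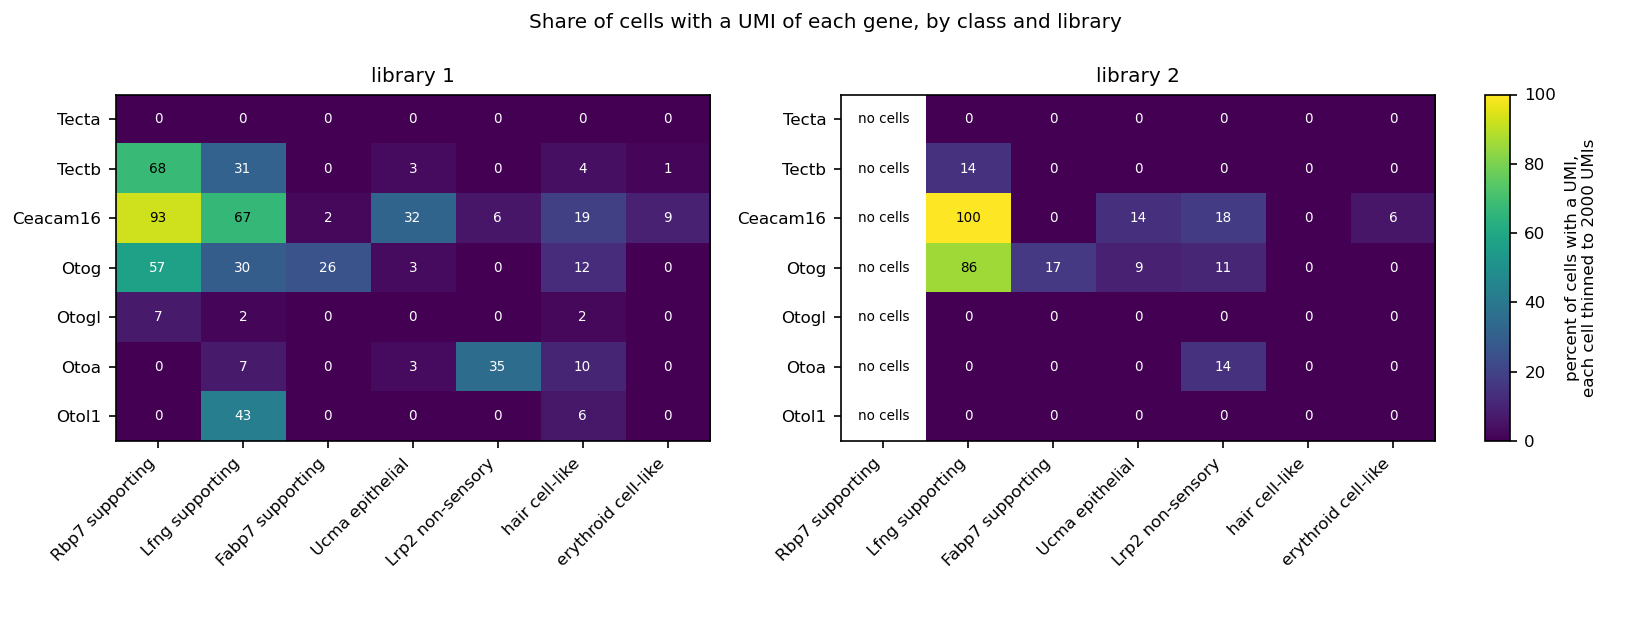
Share of cells with at least 1 UMI of each gene (rows) by class (columns) in library 1 (left) and library 2 (right), after each cell was thinned to 2000 UMIs; colour and printed numbers give percent. Erythroid cell-like cells, which should lack these genes, show the background, 9.20% and 6.06% for Ceacam16; in library 1 Otol1 reached 42.6% in the Lfng class and 0% in the Rbp7 class, and library 2 held 7 Lfng class cells and no Rbp7 class cells.

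Each class was then compared with the mean of the other fitted epithelial and hair cell-like classes in the same edgeR fit, with adjustment over 5614 genes. In the Lfng class all 5 members tested were higher and 0 lower, beside 4.58% of all genes higher. Tectb and Otol1 passed the filter on low counts only with the sums of this class. That they were tested and that they were higher here are therefore not independent. The log2 fold changes were 6.57 ± 0.43 for Tectb (adjusted p = 5.82e-48), 6.17 ± 0.44 for Otol1 (4.34e-42), 3.37 ± 0.57 for Ceacam16 (0.000336), 2.40 ± 0.63 for Otoa (0.00430) and 2.27 ± 0.27 for Otog (8.49e-14). All 5 were also above the mean of the others in each library on its own. Since Tectb, Otol1 and Otoa had 0 counts in at least 1 comparison class, their fitted sizes depend on the prior count and are not bounds. With DESeq2 in place of edgeR 2 of the 5 passed, Tectb and Ceacam16. In library 2 the Tectb call rests on the 1 cell with 25 UMIs, without which the class had 0 UMIs of Tectb there, and the Otol1 and Otoa values rest on 2 UMIs each.

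In the Fabp7 class 1 member was higher and 2 were lower, while Tectb and Otol1 had no usable estimate, beside 6.00% of genes higher and 2.05% lower. Otog was higher by 0.97 ± 0.29 (edgeR, adjusted p = 0.0163), a call that was lost with DESeq2 size factors. Ceacam16 was lower by -5.89 ± 1.04 (0.000396), and Otoa, with 0 counts in this class, was lower as well (adjusted p = 4.50e-06). In the Ucma class 0 members were higher and 1 lower, again with no usable estimate for Tectb and Otol1, beside 4.29% and 0.819%: Otog was lower by -1.72 ± 0.43 (adjusted p = 0.00219), but its difference was -1.80 in library 1 and 0.53 in library 2, and with DESeq2 size factors the call was lost. That scaling also changed the split of all genes called in this class, to 212 higher and 111 lower, against 241 higher and 46 lower.

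In the Lrp2 class 2 members were higher and 2 lower, beside 8.07% and 3.71%. Otoa was higher by 4.45 ± 0.53 (edgeR, adjusted p = 8.02e-15), with 3.15 and 3.48 in libraries 1 and 2, and Ceacam16 by 3.75 ± 0.57 (adjusted p = 4.95e-05). Otoa had 0 counts in the Fabp7 class, so its fitted size depends on the prior count. Its mean level was 123 CPM, beside 44.2 CPM in the Lfng class, the next in order. The library 1 sum of the Lrp2 class leans on 2 cells, with 53851 and 58205 of its 209551 UMIs. Otog was lower by -2.30 ± 0.49 (6.90e-05), with -5.04 in library 1 and 0.10 in library 2, and Tectb, with 0 counts in the class, was lower at an adjusted p of 0.0459. Each of these 2 lower calls was lost under several of the other settings.

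The Ceacam16 value of the Lrp2 class came from few cells. Of its 742 UMIs, 729 lay in 4 cells, which held 181 UMIs in library 1 and 85, 243 and 220 in library 2. These 4 cells had 0 UMIs of Lrp2 and of Crhbp, 2 of the 3 markers that named the class, and 2 to 8 UMIs of the third, Slc26a4. They also had 9 to 15 UMIs of Epyc, a proteoglycan gene, 1 to 8 of Otoa and 0 of Tectb and Otol1. The other 41 cells of the class held 13 Ceacam16 UMIs, at most 2 in a cell, and 34 of them held Lrp2. Their Ceacam16 levels of 34.4 and 38.5 CPM in libraries 1 and 2 stood beside 38.2 and 14.0 CPM in erythroid cell-like cells. The call of Ceacam16 in this class therefore rests on these 4 cells, and since they were picked by their Ceacam16 UMIs, no test of Ceacam16 without them is given. Otoa was at 969 and 834 CPM in the 4 cells (6 and 14 UMIs in libraries 1 and 2) and at 98.3 and 44.9 CPM in the other 41 (20 and 7 UMIs). Leaving out the 4 cells was tried only once their values were known. Without them Otoa was higher in the Lrp2 class by 3.76 ± 0.62 (edgeR, adjusted p = 7.44e-08). This size too depends on the prior count, since the Fabp7 class had 0 counts of Otoa. The 4 cells go against the name of their class, and they held 3607 to 7660 UMIs each, beside class medians of 5992 and 5821 UMIs in libraries 1 and 2.

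Hair cell-like cells, the receptors under the tectorial membrane, also carried members, but in library 1 alone. There Ceacam16 stood at 197 CPM, Otog at 162, Otol1 at 59.0 and Tectb at 55.0 CPM. The 4 cells of library 2 had 0 UMIs of all 7 genes, which allows up to 83.3 CPM each. In hair cell-like cells 3 members were higher and 0 lower than the mean of the fitted epithelial classes, beside 15.4% and 10.8% of genes. Tectb was higher by 3.57 ± 0.66 (edgeR, adjusted p = 1.20e-06), Otol1 by 3.21 ± 0.66 (1.46e-05) and Otog by 0.79 ± 0.30 (0.0391). Tectb and Otol1 had 0 counts in the Lrp2 class, so their fitted sizes depend on the prior count. Pooled epithelial cells of library 1, with the unfitted Rbp7 class, stood above hair cell-like cells. They had 338 CPM of Tectb, 201 of Otog and 84.2 of Otol1. The Otog call was lost with DESeq2 size factors, without a filter on low counts, without the replicate block, at resolution 2.0 and with doublets kept (edgeR, adjusted p from 0.0602 to 0.405), and with DESeq2 (0.973). The differences in library 2 were all negative, -1.67, -0.80 and -4.60.

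These UMIs lay in cells that also held supporting cell markers. Of the 52 hair cell-like cells, 15, all in library 1, held at least 5 UMIs of 8 supporting cell markers (S100a1 was not counted, since hair cells carry it). They had 120 of the 121 Otog UMIs of the class, 43 of 44 of Otol1, 37 of 41 of Tectb and 123 of 147 of Ceacam16. The same 15 cells held 308 UMIs of the connexin gene Gjb2, which is not among the 8 markers, and the other 37 held 9. Lfng (71 and 0 UMIs) and Sox2 (61 and 3) are among the 8 markers, so the choice of cells set their split. Hair cell genes were present in both, with a median of 31 UMIs of otoferlin (Otof) per cell in the 15 cells and 31 in the 37. Slc17a8, the vesicular glutamate transporter gene of inner hair cells, was seen in 15 of the 15 and 31 of the 37 cells, and Ocm, the oncomodulin gene of outer hair cells, had 33 UMIs in the 15 and 2572 in the 37. The 15 cells were deeper, with a median of 21616 UMIs against 12710. Cells that Scrublet marked as doublets had been removed before. In the 37 cells Otog and Otol1 had 1 UMI each, Tectb 4 and Ceacam16 24, and Otogl had 0. With the 15 cells left out, likewise tried only once their values were known, 0 members were higher in hair cell-like cells and 2 were lower, beside 15% of genes lower: Otog by -4.98 ± 0.84 (edgeR, adjusted p = 4.32e-08) and Ceacam16 by -3.31 ± 0.77 (0.000796). Since the 15 cells were known to hold 120 of 121 Otog and 123 of 147 Ceacam16 UMIs, these lower calls were largely set by leaving them out. They are no independent result. The part of supporting cell RNA in the hair cell-like values was not tested.

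**Figure D3:**
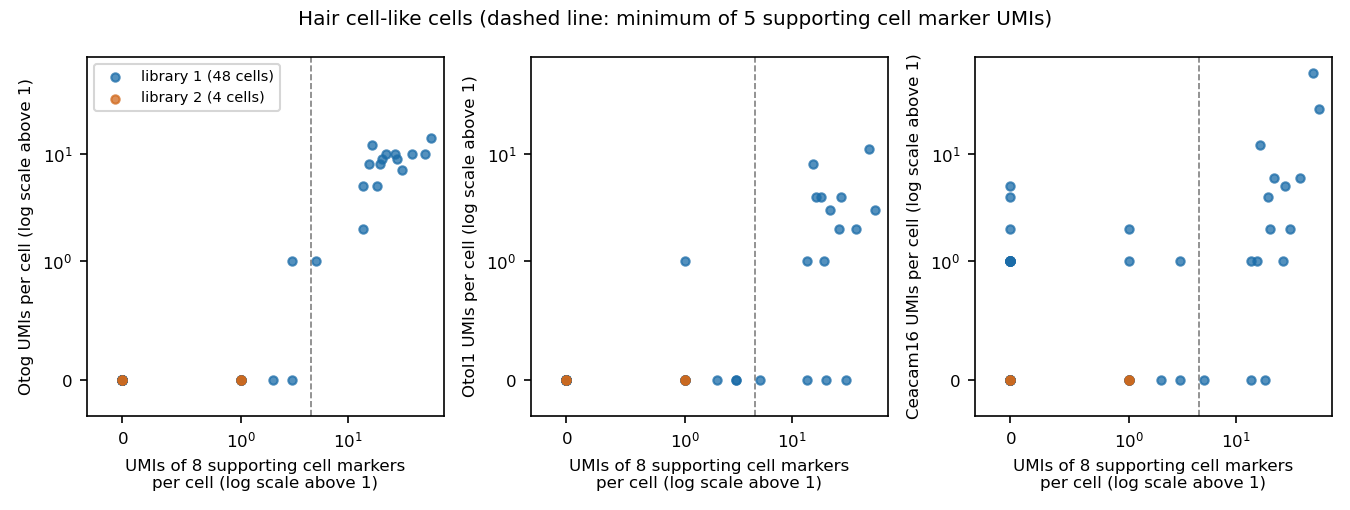
UMIs of Otog, Otol1 and Ceacam16 per hair cell-like cell against the summed UMIs of 8 supporting cell markers in the same cell (log scales above 1), for 48 cells of library 1 (blue) and 4 of library 2 (orange). Right of the dashed line, which marks 5 marker UMIs, 15 cells hold 120 of 121 Otog UMIs and 43 of 44 Otol1 UMIs.

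In single cells the members were combined in several ways, shown in the plot of pairs of genes. Of 176 epithelial cells in library 1, 21 held none of the 7 genes, 39 held 1, 42 held 2, 40 held 3 and 34 held 4 or more. In library 2, 28 of 63 held none and 7 held 3 or more. In the Rbp7 class 22 of 28 cells held both Tectb and Otog, and all 23 cells with Tectb also held Ceacam16. In the Lfng class of library 1, 36 of 54 cells held both Otog and Otol1, 41 held both Ceacam16 and Otol1, and 26 held both Tectb and Otol1.

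The amounts did not rise together in every pair. In the Rbp7 class Tectb and Ceacam16 ran in opposite order (Spearman correlation -0.48 over 28 cells of 1 library). This is a description without a test, in which cells share the library and differ in depth. The correlations given here use the UMIs of a gene divided by all UMIs of its cell. The 7 cells lowest in Tectb held 0 or 1 UMI of it and a median of 210 Ceacam16 UMIs, and the 7 highest, with 46 to 90 Tectb UMIs, a median of 38. The 7 cells lowest in Tectb had 5097 to 18489 UMIs over all genes and the 7 highest 10210 to 23020. Otog followed Tectb, with a Spearman correlation of 0.40 and medians of 5 and 9 UMIs in the same 7 and 7 cells. In the Lfng class of library 1 the correlation was -0.38 between Ceacam16 and Otol1, -0.33 between Otog and Otol1 and 0.42 between Tectb and Otoa, each over 54 cells.

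**Figure D4:**
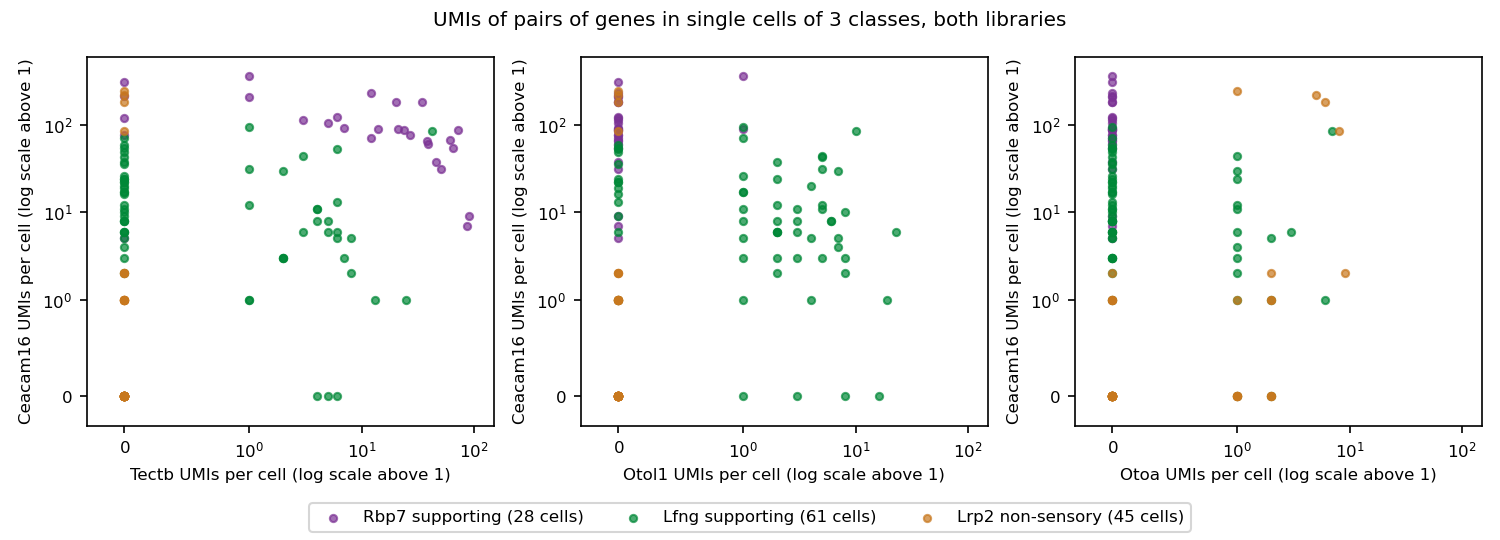
Ceacam16 UMIs per cell against Tectb (left), Otol1 (middle) and Otoa (right) UMIs per cell, on log scales above 1, in the Rbp7 class (28 cells), the Lfng class (61 cells) and the Lrp2 class (45 cells), both libraries. The 7 Rbp7 class cells with the most Tectb hold 7 to 87 Ceacam16 UMIs and the 7 with the least 5 to 361, Otol1 lies in Lfng class cells, and the 4 Lrp2 class cells with at least 85 Ceacam16 UMIs stand apart from the other 41.

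Where the genes lie is known from the GENCODE annotation of GRCm38, the build mm10 of the counts. Otol1 (ENSMUSG00000027788) spans chromosome 3, 70007613 to 70028708, plus strand. Tecta (ENSMUSG00000037705) spans chromosome 9, 42329619 to 42399929, minus strand, and Otogl (ENSMUSG00000091455) chromosome 10, 107760531 to 107912134, minus strand. Tectb (ENSMUSG00000024979) spans chromosome 19, 55180733 to 55196313, plus strand. Chromosome 7 holds Ceacam16 (ENSMUSG00000014686, 19852097 to 19861299, minus strand), Otog (ENSMUSG00000009487, 46240987 to 46311434, plus strand) and Otoa (ENSMUSG00000034990, 121081650 to 121163097, plus strand). Ceacam16 overlaps the antisense gene Gm19345, which had 19 and 2 UMIs in the kept cells. The sources used here do not say whether the counting used strand, so reads of this pair could be split between them.

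RefSeq promoters (GRCm38.p6) were found for 5 of the 7 genes, Tecta, Tectb, Otog, Otoa and Otol1. The 250 bases before the start are shown for the 3 genes whose levels set the Lfng class apart in different ways: Otol1, seen nearly only there among epithelial classes, Tectb, shared with the Rbp7 class, and Otog, shared with all supporting cell-like classes. All 3 lie on the plus strand, 5′ to 3′, and capitals mark matches on either strand to ACAAAG or ACAATG, letters bound by SOX factors, and to AGATAA, letters bound by GATA factors. Otol1 is from chr3:70007363-70007612, Tectb from chr19:55180476-55180725 and Otog from chr7:46240737-46240986.
Otol1: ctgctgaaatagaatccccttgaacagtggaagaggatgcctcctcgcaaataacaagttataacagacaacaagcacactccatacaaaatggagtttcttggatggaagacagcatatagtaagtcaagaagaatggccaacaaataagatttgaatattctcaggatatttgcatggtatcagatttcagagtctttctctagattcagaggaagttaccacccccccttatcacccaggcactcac
Tectb: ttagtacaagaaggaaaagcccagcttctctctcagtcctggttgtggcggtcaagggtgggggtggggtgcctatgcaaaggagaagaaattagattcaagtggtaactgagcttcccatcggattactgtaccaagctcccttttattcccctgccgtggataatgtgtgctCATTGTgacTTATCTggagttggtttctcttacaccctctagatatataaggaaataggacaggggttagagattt
Otog: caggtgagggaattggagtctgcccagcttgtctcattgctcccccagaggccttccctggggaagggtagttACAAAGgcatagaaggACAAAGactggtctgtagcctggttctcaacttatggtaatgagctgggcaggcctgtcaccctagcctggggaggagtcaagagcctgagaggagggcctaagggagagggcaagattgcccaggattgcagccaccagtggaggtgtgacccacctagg

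The Otog window held 2 matches to ACAAAG, beginning 177 and 161 bases before the start. The Tectb window held 1 match to ACAATG on the minus strand and 1 to AGATAA on the minus strand, beginning 76 and 67 bases before the start. The Otol1 window held none of these letters. Of 32851 windows of the same length in the table, 25.2% held ACAAAG or ACAATG, 9.99% held AGATAA and 12.4% held TATAAA, which none of the windows of the 5 genes did. The motifs do not overlap each other, and a match describes letters, not a bound site.

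Genes whose levels were most like those of a member were ranked by Pearson correlation of log2(CPM + 10) over the 32 sums, which share libraries and depth. The Rbp7 class, with 735 of the 971 Tectb UMIs of library 1, is not among these sums. For Tectb and Otol1 the values are set mainly by the Lfng class and the hair cell-like sum of library 1. Rassf6 and Cpa6 were among the leading genes of the Lfng class. Tectb was closest to Rassf6 (0.99), Cpa6 (0.99), Dgkb (0.98), the transcription factor gene Pou3f2 (0.98) and the histidine decarboxylase gene Hdc (0.98). Otol1 was closest to the transcription factor gene Prdm12 (0.98), Slitrk3 (0.97), Hdc (0.94), Ppp1r14c (0.93) and the retinol binding protein gene Rbp7 (0.93). The likeness to Rbp7 does not hold in the left-out Rbp7 class, which was led by Rbp7 and had 2 Otol1 UMIs in 28 cells. Ceacam16 was closest to periplakin (Ppl, 0.92), Cadps2 (0.91), the sodium channel subunit Scnn1b (0.89), Ovol2 (0.89) and Amer2 (0.88). Otoa shared 3 of those, Ovol2 (0.89), Cadps2 (0.88) and Scnn1b (0.88), with Slc9a4 (0.88) and Bbox1 (0.87) beside them. Otog was closest to Tcaf2 (0.93), the transcription factor gene Sox21 (0.93), Marveld3 (0.93), Zdhhc2 (0.92) and Tmem79 (0.92). Otogl, on 37 UMIs, was closest to 1700016K19Rik (0.86), Nox4 (0.85), 3110039M20Rik (0.83), Prkcq (0.83) and Celsr1 (0.83). Tecta had too few UMIs to be ranked.

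Collagens form the fibrils around which the tectorins assemble. Of 8 tectorial membrane collagen genes tested, 4 were higher in epithelial than in non-epithelial classes and 0 lower, beside 23.4% and 9.32% of all genes, but Col5a1 and Col5a2 had no usable estimate. In sums over each side 5 were higher and 3 lower, beside 16.8% and 18.6% of all genes, with a median log2 fold change of 1.24 beside -0.09. Col5a1 had 2.27 and 2.05 CPM in epithelial cells against 12.99 and 13.7 CPM in non-epithelial cells, and Col5a2 2.64 and 0 against 21.7 and 24.8 CPM. Col2a1 also stood lower, at 26.0 and 4.11 CPM against 114 and 28.5 CPM. Col9a1, a chain of the fibril-associated collagen IX, had 114 and 55.4 CPM in epithelial cells of libraries 1 and 2 and 21.3 and 11.6 CPM in non-epithelial cells (2.92 ± 0.34, edgeR, adjusted p = 5.72e-16). Its partner chain Col9a3 had 122 and 92.4 CPM against 9.08 and 6.58 CPM (4.22 ± 0.24, adjusted p = 2.05e-66). The collagen XI chains Col11a2 (86.1 and 94.4 CPM against 21.7 and 23.1 CPM) and Col11a1 (64.9 and 110.9 CPM against 19.8 and 20.1 CPM) were higher as well. Within the epithelium 4 of the 8 were higher in the Ucma class, Col11a1 (3.62 ± 0.30), Col9a2 (2.57 ± 0.30), Col9a1 (1.95 ± 0.29) and Col9a3 (0.97 ± 0.30), beside 4.29% of all genes, and 5 were lower in hair cell-like cells, beside 10.8%. Col5a1 and Col5a2 had no usable estimate in either comparison. In the Fabp7 class 2 of the 8 were higher and 1 lower, beside 6.00% and 2.05% of all genes. In the Lfng class 2 were higher and 0 lower, beside 4.58% of all genes higher. Col9a3 was higher in the Fabp7 class by 1.01 ± 0.28, and Col11a2 in the Lfng class by 1.08 ± 0.29. The Ucma class, with 4 of the 8 higher, had 16.3 and 56.0 CPM of Otog and at most 1 UMI of Tectb per library.

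Other genes of these membranes were followed as lists. Of 6 tested genes for stereocilin, hepsin and thyroid hormone signalling, 2 were higher in epithelial classes, beside 23.4% of all genes. Strc and Dio2 had no usable estimate. In sums over each side 1 of 5 tested was higher, beside 16.8% of all genes, with a median of -0.23 beside -0.09. The membrane protease gene Hpn (hepsin) had 26.0 and 45.2 CPM in epithelial cells and 2.39 and 1.01 CPM in non-epithelial cells (3.99 ± 0.39, edgeR, adjusted p = 1.56e-23). The thyroid hormone receptor gene Thrb had 41.5 and 28.7 CPM against 17.6 and 21.1 CPM. Strc, for stereocilin, which ties outer hair cell bundles to the tectorial membrane, had 40 and 4 UMIs in hair cell-like cells and 2 and 0 in epithelial cells.

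Of 6 tested genes of the otoconial matrix, in which otolin takes part, 3 were higher and 2 lower, beside 23.4% and 9.32% of all genes, and Oc90 had no usable estimate. In sums over each side 2 were higher and 2 lower, with a median of 1.92 beside -0.09 over all genes. Noxo1, an organiser of the superoxide-forming enzyme of otoconia formation, had 40.4 and 49.3 CPM in epithelial cells and 3.38 and 5.23 CPM in non-epithelial cells (3.38 ± 0.30, edgeR, adjusted p = 2.24e-27). Sparc, for the matrix protein osteonectin, had 5743 and 1866 CPM against 858 and 837 CPM, while its relative Sparcl1 had 25.7 and 32.8 CPM against 502 and 614 CPM. Cyba was lower, at 69.5 and 39.0 CPM against 254 and 265 CPM. Atp2b2, the calcium pump gene named by its call and not by abundance, had 11.3 and 55.4 CPM against 7.69 and 0.675 CPM. Oc90, the main otoconial protein gene, named after its values were seen, was higher in the Lrp2 class (7.53 ± 0.92, edgeR, adjusted p = 2.91e-14) with 21 and 3 UMIs there. Otol1 had 0 UMIs in that class.

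Of 14 tested genes of the basilar membrane and basement membranes, 1 was higher and 5 were lower in epithelial classes, beside 23.4% and 9.32% of all genes, and Emilin1, Lama2, Col4a2 and Col4a3 had no usable estimate. In sums over each side 0 were higher and 9 lower, with a median of -1.96 beside -0.09 over all genes. The 4 with the most UMIs among those lower were Emilin2 (111 and 69.8 CPM in epithelial cells, 2571 and 2759 CPM in non-epithelial cells), Fn1 for fibronectin (12.5 and 20.5 against 370 and 456 CPM), Lamc1 (23.8 and 16.4 against 86.0 and 104 CPM) and Lamb2 (41.5 and 24.6 against 85.1 and 90.9 CPM). Nid1 was the other one lower, and Col4a5 the one higher. In the Lrp2 class 6 of the 14 were higher than in the other epithelial and hair cell-like classes, among them the collagen IV chains Col4a3 (5.28 ± 0.89) and Col4a4 (3.78 ± 0.59), beside 8.07% of all genes. Col4a3 had 2 and 11 UMIs in this class in libraries 1 and 2, Col4a4 9 and 13, and Hspg2 15 and 2. The other calls, Col4a1, Col4a2 and Nid1, rest on 6, 5 and 7 UMIs in library 1 and had 0 in library 2. Of 11 relatives of the members by zona pellucida, CEACAM or von Willebrand domains 1 was tested, Ceacam1, and with 0 counts in whole classes on both sides it could not be fitted, while in sums over each side it was lower.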

How the data were processed

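The deposited values were UMI counts for each gene in each barcode. The submitters' processing notes name Cell Ranger 2.1.0 and mm10. No normalization had been applied. The droplet kit and the use of strand are not given in the sources used here. The libraries held 1610 and 720 barcodes and 20212520 and 7094752 UMIs. Barcodes with under 300 genes (275 and 60) or over 20% mt- UMIs (4 and 16) were removed, and Scrublet at an expected rate of 2% removed 2 and 4 doublets. Cells were scaled to 10000 UMIs and log-transformed. From 2093 genes (variable genes with an odd checksum of the identifier, and markers), 30 principal components, 15 neighbours and Leiden clustering at resolution 1 gave 23 clusters (scanpy 1.11.5, anndata 0.12.19, numpy 2.4.6, scipy 1.17.1, Python 3.11.15). The 7 genes, all list genes and the genes with an even checksum were held out of the clustering, 13957 in all. A cluster was named from at least 3 markers of a list (a log2 fold of 1 or more on CPM plus 10, with 10% of its cells positive), with the largest share of its list and more markers among its 10 leading genes than any other list. This rule, the definition of epithelial classes and both settings that leave out cells were written after the clustering was seen. The members and lists were chosen with earlier results of these data known.

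Raw counts were summed per class and library. The 16 classes holding 3 or more cells in both libraries gave 32 sums of 36019 to 2449310 UMIs, which set the precision of rare classes. They entered 1 edgeR quasi-likelihood fit (edgeR 4.0.16, limma 3.58.1, R 4.3.3) with TMM factors and the library as a block, on the 11508 genes that filterByExpr kept at a minimum count of 10. Tests were limited to 5614 genes held out of the clustering, adjusted by Benjamini-Hochberg within each comparison, with calls at 0.05. The median prior degrees of freedom were infinite, beside 15 residual ones, so a typical gene was tested against a spread shared over genes. Each SE is the fold change over the root of its F, and an SE above 10 is called no usable estimate. DESeq2 1.42.0 and the other settings are given in the closing section. All 7 genes are named. Of each list, the genes called in the epithelial comparison are given, with values for at most 4 by UMIs, and of each gene with at least 20 UMIs the 5 genes most like it. The result of 1 list gene is not reported here. No correction was made for free RNA in droplets. Exact Poisson and binomial 95% intervals cover counting error only, and 3 counts served as the limit that 0 allows.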

Additional observations from a re-analysis of the deposited data

Results flagged for a closer look

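Barcodes left out of every comparison held Ceacam16. The barcodes with under 300 genes had 38 Ceacam16 UMIs in library 1 (in 34 of 275 barcodes, 22.7 CPM) and 6 in library 2 (in 6 of 60 barcodes, 12.7 CPM). Both counts are above the 3 counts that a count of 0 allows, and the series has no control samples. Non-epithelial cells stood at 29.3 and 8.10 CPM of Ceacam16 in the same libraries. The other members had at most 3 UMIs each in these barcodes. The source of these UMIs was not tested.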

How the results depend on the processing

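For epithelial against non-epithelial classes, with sums over each side 6 members were called, all higher, and 1124 genes were lower, so that 47.4% of calls were higher, against 71.5%. Of those 6 all but Ceacam16 passed the filter on low counts only with their epithelial sums. DESeq2 called 965 genes lower. Classes with at least 10 cells left 3 members tested, all 3 called. The other settings kept 2 members, apart from DESeq2 with 3. Of the class comparisons, the 5 members higher in the Lfng class became 2 with DESeq2. The 1 lower in the Ucma class became 0 with DESeq2 size factors, with DESeq2, without the replicate block and in both added settings. Without the Ceacam16-high cells of the Lrp2 class 1 was higher, Ceacam16, whose comparison value those cells had raised. DESeq2 size factors shifted the median of all genes in that class by more than 0.1, to -0.12 against 0.05, with 65.6% of calls higher against 84.0%, and in hair cell-like cells to 0.10 against -0.04. The 1 higher in the Fabp7 class became 0 with DESeq2 size factors, DESeq2, no replicate block and resolution 2.0. The 3 higher in hair cell-like cells became 2 with DESeq2 size factors, no filter on low counts, no replicate block, resolution 2.0 or doublets kept, in each by the loss of Otog, 1 with DESeq2 and 0 without the 15 cells, and the 0 lower became 1 at resolution 2.0 and 2 without those cells. In the Lrp2 class the 2 higher became 1 with at least 10 cells per class and 1 without the Ceacam16-high cells, and the 2 lower became 1 without a filter on low counts and 0 with DESeq2, without the replicate block, with at least 10 cells per class and without the 15 hair cell-like cells. At resolution 2.0 they became 3, with Otol1, and with DESeq2 size factors Otog was lost (adjusted p = 0.0528) and Otol1 entered (0.0464).

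Ceacam16 in the Lrp2 class was -2.47 without the 4 cells, a direction fixed by picking them on Ceacam16. In hair cell-like cells without the 15 cells the direction of Otog reversed (-4.98), and Otol1 had no usable estimate (-1.22 with an SE of 18.9). The direction of Otog also reversed with DESeq2 in hair cell-like cells (-0.19) and with at least 10 cells per class in the Ucma class (0.64), where Otoa was -3.22. With either replicate left out the values ran from -1.67 to 2.17 for Tectb, from -4.60 to 1.90 for Otog and from -0.80 to 2.03 for Otol1 in hair cell-like cells, and for Otog from -1.80 to 0.53 in the Ucma class and from -5.04 to 0.10 in the Lrp2 class. Sums of fewer classes change what is compared, and otherwise the cause was not tested. With 500 genes and 10% mt- UMIs hair cell-like cells had no fitted value. No paired analysis beyond the replicate block was possible because the samples form 1 group. Depth limits Tecta, Otogl and library 2, which held 7, 6 and 4 cells of the Lfng, Fabp7 and hair cell-like classes.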
